A study of Arabidopsis thaliana with 8 samples.

Results

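The serine carboxypeptidase-like (SCPL) family of Arabidopsis thaliana was described in inflorescence stems of wild-type plants and of plants with altered ferulate/coniferaldehyde 5-hydroxylase (F5H). Members were taken by name alone, as every gene whose symbol in the array annotation or the current gene table is SCPL followed by a number and which had a probe set pairing with that gene only. This gave 29 genes, each with 1 probe set, among 22746 probe sets tested and 13356 genes that could be named in this way. The gene table lists 49 such symbols. A further 3 of them (SCPL36, SCPL37 and SCPL39) shared 2 probe sets with other genes, and the other 17 were not analysed here. Total RNA came from Columbia-0 plants 1.5 months old, with stems of 5 plants pooled in each sample, and the samples are labelled biological replicates. The 3 groups were WT (3 arrays), an F5H overexpression line named F5H-OE (3 arrays) and the F5H loss-of-function line fah-1 (2 arrays). The labels do not say which promoter drives F5H in F5H-OE, or from how many independent lines its stems came.

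SCPL proteins have the fold and the serine, aspartate and histidine catalytic triad of serine carboxypeptidases, which remove single residues from the C-terminus of proteins. Several plant members have become acyltransferases that take the acyl group from a glucose ester. In Arabidopsis SNG1 (also called SCPL8) makes sinapoylmalate in leaves, SCPL19 (SNG2) makes sinapoylcholine in seeds, SCPL10 puts sinapate on anthocyanins and SCPL17 acylates glucosinolates. F5H stands upstream of sinapate, and fah-1 plants are known for their lack of sinapate esters. A different role is known for BRS1 (SCPL24), a secreted carboxypeptidase that acts in brassinosteroid signalling. SNG1 and BRS1 carry symbols that the rule does not take. The table has 18 symbols numbered up to 19, the range that holds these acyltransferases, and 2 of them were measured here, SCPL16 and SCPL18. The other 27 measured genes are numbered 20 to 50.

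Median intensities of the 8 arrays lay between 112 and 118, and mean correlations of log2 values within a group lay between 0.991 and 0.997 for all arrays except F5H-OE replicate 1, at 0.987. That array also had the largest difference between the 3′ and 5′ GAPDH control probe sets, 1.47 on the log2 scale against 0.51 to 0.853 in the others. Of the tissue markers, 3 of 10 genes of secondary walls and xylem, 1 of 5 of phloem and 1 of 5 of photosynthetic tissue could be named, and 0 of 4 of seed and 0 of 5 of flower organs. The summed intensity of the 3 xylem genes, IRX10, IRX15 and IRX15-L, was 4032 to 5379 in WT, 4520 to 5485 in F5H-OE and 3278 to 3427 in fah-1 (sums over genes within an array). SWEET11, the phloem gene, read 59 to 576 in F5H-OE against 312 to 916 in WT and 528 to 619 in fah-1. F5H itself (AT4G36220) was not paired with a probe set in the annotation, so the genotypes were not checked on its signal. In such bulk samples, fewer cells of a type and less RNA per cell cannot be told apart. The part of these markers and of the RNA quality of F5H-OE replicate 1 in the results was not tested.

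A first question was which members gave a signal in stems at all. The TrpnX control probe sets, which match no plant gene, served as background, and the highest of them lay between log2 3.65 and 3.93 over the arrays. In every array 15 of the 29 genes were at least 1 log2 unit above it: SCPL20, SCPL25, SCPL26, SCPL27, SCPL29, SCPL31, SCPL34, SCPL35, SCPL40, SCPL42, SCPL45, SCPL46, SCPL48, SCPL49 and SCPL50. Another 10 genes were above it in all 8 arrays but by less than 1 unit in some, SCPL21, SCPL23, SCPL28, SCPL30, SCPL32, SCPL33, SCPL41, SCPL43, SCPL44 and SCPL47. SCPL22 was above it in 6 arrays, SCPL16 in 1, and SCPL18 and SCPL38 in none. Both measured genes of the acyltransferase range were thus at background, SCPL16 at log2 3.33 to 3.8 and SCPL18 at 3.44 to 3.73. The shared probe set of SCPL36 and SCPL37 lay at log2 3.45 to 3.82 and that of SCPL39 at 3.46 to 3.74. Brightness depends on the probe as well as on the transcript, so these levels are not ranked against each other.

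**Figure D1:**
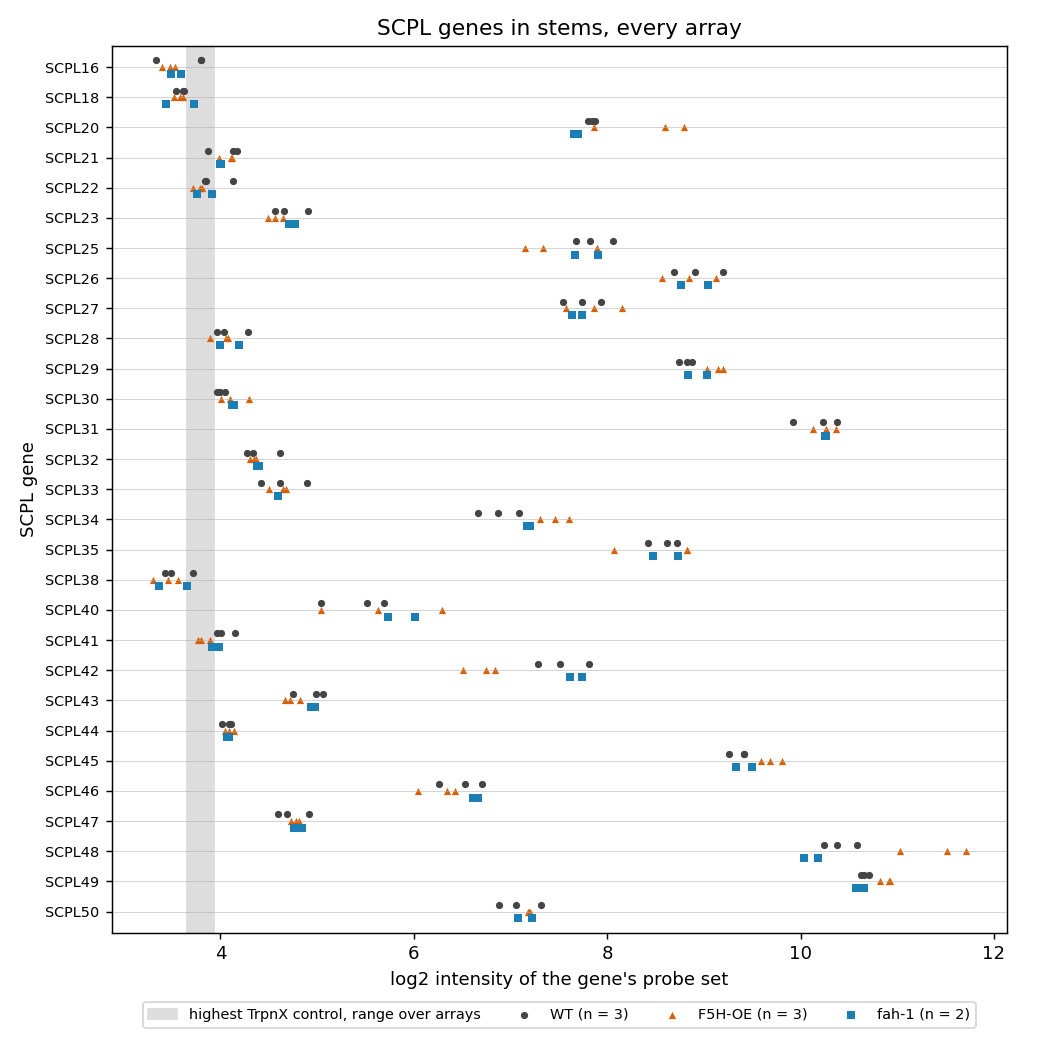
Log2 intensity (x axis) of each of the 29 SCPL genes (y axis) in every array, with WT as circles, F5H-OE as triangles and fah-1 as squares, and the grey band spanning log2 3.65 to 3.93, the highest TrpnX control of each array. For SCPL42 the F5H-OE points lie left of both other groups and for SCPL48 right of them, while SCPL16, SCPL18 and SCPL38 lie in or left of the band.

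F5H-OE was first set against WT, to find which members differ where F5H is overexpressed. In the family SCPL48 and SCPL34 were higher in F5H-OE and SCPL42 was lower, so that 3 of 29 genes, all among the 15 bright ones, passed limma's test at an adjusted p under 0.05. Over all 22746 probe sets 2.65% passed, 1.29% higher and 1.36% lower. Each gene is described in turn.

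SCPL48 is numbered beside SCPL49, which the gene table also names carboxypeptidase Y after the vacuolar protease of yeast. Its intensities were 1533, 1209 and 1332 in WT replicates 1 to 3, 2088, 2918 and 3349 in F5H-OE, and 1163 and 1055 in fah-1. All F5H-OE arrays were above all WT arrays, and both fah-1 arrays were below them. The mean was 2785 ± 641 (SD, n = 3) in F5H-OE against 1358 ± 164 (SD, n = 3) in WT, a 2.02-fold difference (log2 fold change 1.02, SE 0.171, limma adjusted p = 0.0217). The array with the lowest F5H-OE value was replicate 1. Without it the log2 fold change was 1.21 and the adjusted p 0.00139. The call ended without WT replicate 2 or 3 or F5H-OE replicate 2 or 3. It also ended in a fit with the replicate number as a block (limma adjusted p = 0.0525). The adjusted p ran from 0.00104 to 0.0933 over 17 alternatives.

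SCPL42 went the other way. Its intensities were 156, 225 and 183 in WT, 91.3, 114 and 107 in F5H-OE, and 197 and 213 in fah-1. The F5H-OE arrays were all below the WT and fah-1 arrays, which overlapped. From 188 ± 34.8 (SD, n = 3) in WT it fell 1.79-fold to 104 ± 11.7 (SD, n = 3) in F5H-OE (log2 fold change -0.84, SE 0.143, limma adjusted p = 0.023). The call ended without WT replicate 2 or 3 or F5H-OE replicate 3, and in a fit of WT and F5H-OE alone. Leaving out either fah-1 array gives that same fit for this comparison, since a lone fah-1 array adds nothing to the estimate of spread. The adjusted p ran from 0.00363 to 0.0851 over the alternatives.

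SCPL34 passed by a narrow margin. It had intensities of 101, 136 and 117 in WT, 159, 194 and 176 in F5H-OE, and 147 and 144 in fah-1. The groups did not overlap, with fah-1 between the other two. The mean rose 1.5-fold, from 118 ± 17.6 to 176 ± 17.6 (SD, n = 3 each; log2 fold change 0.58, SE 0.122, limma adjusted p = 0.0489). The call ended in 11 of 17 alternatives, a count that holds 1 fit more than once. The fit of WT and F5H-OE alone and those without a fah-1 array are the same fit for this comparison. Others were each array recentred on its median (limma adjusted p = 0.0528) and a second quantile normalization (0.0504). The call also ended without WT replicate 1 or 3 or F5H-OE replicate 2 or 3. Over the alternatives the adjusted p ran from 0.0149 to 0.165 and the log2 fold change from 0.47 to 0.69.

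**Figure D2:**
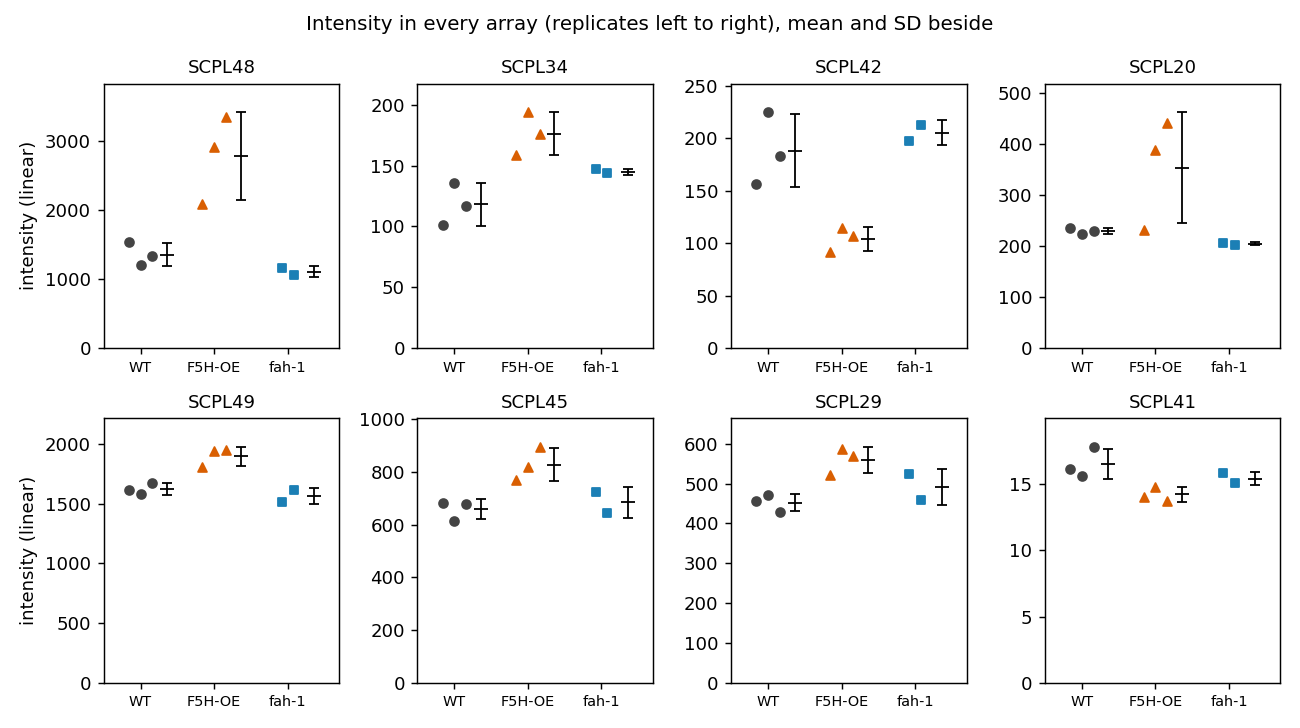
Intensity on a linear scale (y axis) of 8 SCPL genes in each array of WT, F5H-OE and fah-1 (x axis), points being arrays and the bar beside them the mean and SD. SCPL48 spans 2088 to 3349 in F5H-OE against 1209 to 1533 in WT, SCPL42 spans 91.3 to 114 against 156 to 225, and in SCPL20 F5H-OE replicate 1 lies at the WT level.

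The numbers called changed when single arrays were left out, in the family and over all probe sets, of which 603 passed with all arrays. Each such fit has 1 array fewer, so an ended call does not by itself show that the array left out carried the difference. With 1 array left out the log2 fold change ran from 0.87 to 1.21 for SCPL48 and from -0.96 to -0.70 for SCPL42. With WT replicate 3 or F5H-OE replicate 3 left out, 0 of the 29 genes passed, although 8 (6 higher and 2 lower) had an unadjusted p under 0.05 with all arrays. At that level all probe sets gave 17.5%, 8.19% higher and 9.35% lower. Without WT replicate 2 (SCPL34) or F5H-OE replicate 2 (SCPL42), or in the fit of WT and F5H-OE alone (SCPL48), a single gene passed. Without F5H-OE replicate 1, 4 passed, the same 3 and SCPL20. The array weights of limma, which gave that array the lowest weight of 0.307, called 7, adding SCPL20, SCPL29, SCPL45 and SCPL49. Over all 22746 probe sets 283 passed without WT replicate 3 and 237 without F5H-OE replicate 3. There 267 passed without WT replicate 2, 358 without F5H-OE replicate 2, 1758 without F5H-OE replicate 1 and 2526 with array weights.

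SCPL20 was singled out after its values were seen, because a single array decided it. It read 235, 223 and 229 in WT and 207 and 203 in fah-1. In F5H-OE it was 232 in replicate 1 but 388 and 442 in replicates 2 and 3. Over all arrays the log2 fold change from WT was 0.58 (SE 0.208, limma adjusted p = 0.206). With the first F5H-OE array left out it rose to 0.85 (limma adjusted p = 0.00147). Of all 29 genes, 18 had their lowest F5H-OE value in replicate 1, a position that array held for 46.4% of all probe sets. Of the 15 bright genes 13 did, and no share was taken over probe sets of like brightness. The gap between replicate 1 and the mean of replicates 2 and 3 was -0.92 for SCPL40, -0.83 for SCPL20, -0.76 for SCPL35 and -0.58 for SCPL48 on the log2 scale.

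A few bright genes had F5H-OE arrays all above WT without passing over all probe sets. The carboxypeptidase Y gene SCPL49 read 1615, 1581 and 1676 in WT, 1802, 1936 and 1946 in F5H-OE, and 1517 and 1614 in fah-1, a log2 fold change from WT of 0.22 (SE 0.0714, limma adjusted p = 0.161). SCPL45 read 683, 615 and 680 in WT, 768, 820 and 896 in F5H-OE, and 726 and 644 in fah-1, with a log2 fold change of 0.33 (SE 0.0909, limma adjusted p = 0.115). SCPL29 read 455, 472 and 428 in WT, 522, 587 and 569 in F5H-OE, and 523 and 459 in fah-1, with 0.31 (SE 0.0854, limma adjusted p = 0.116). In all 3 genes the F5H-OE arrays stood above WT, and in SCPL29 one fah-1 array overlapped them. With SCPL34 and SCPL48 that made 5 of 29 genes entirely above WT, while SCPL22, SCPL41 and SCPL42 were entirely below. All probe sets gave 9.34% above and 11.7% below, 21% in all.

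**Figure D3:**
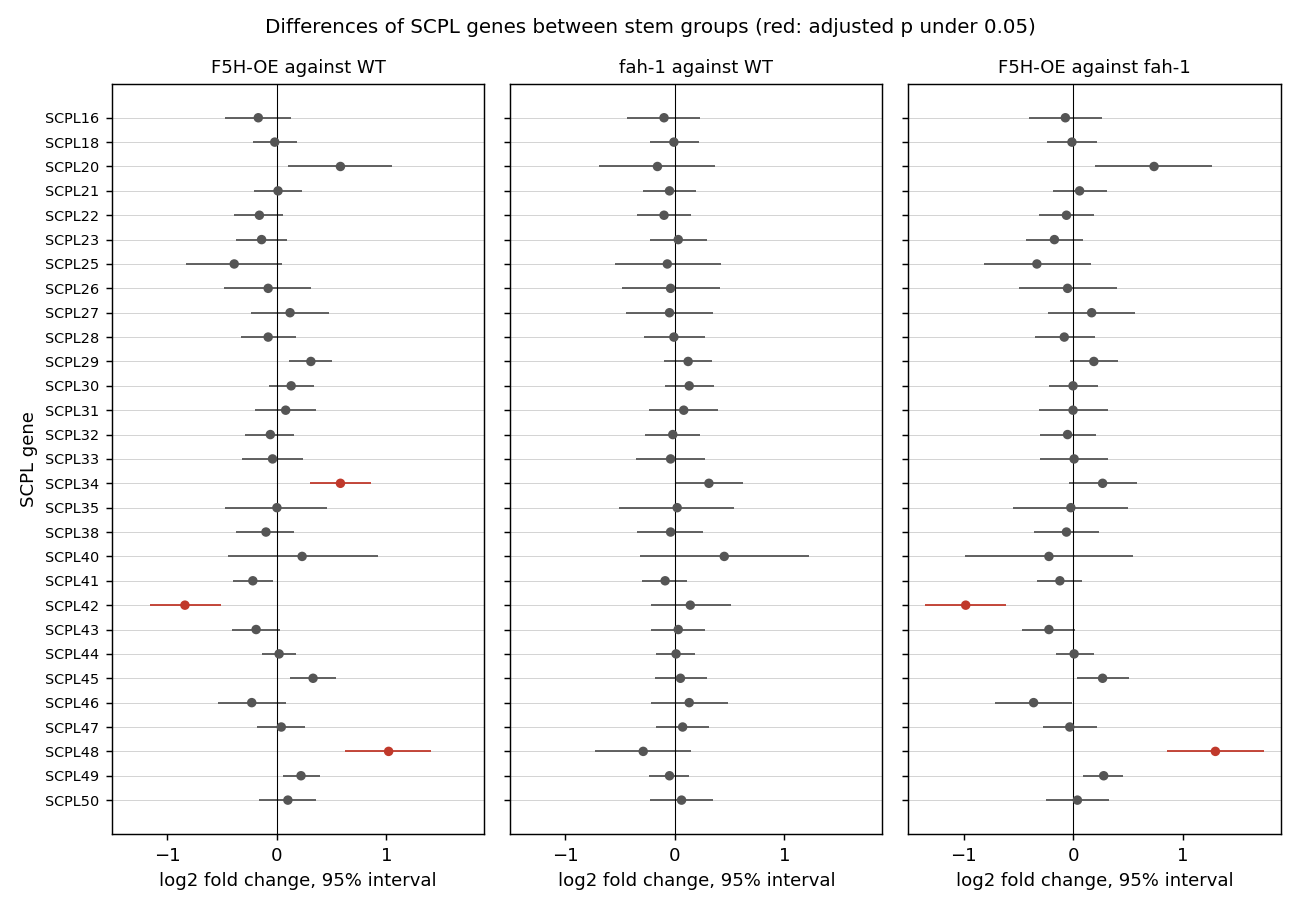
Log2 fold change (x axis) with its unadjusted 95% interval for the 29 SCPL genes (y axis) in each of the 3 comparisons, red marking an adjusted p under 0.05. SCPL34, SCPL42 and SCPL48 are red in F5H-OE against WT, none in fah-1 against WT, and SCPL42 and SCPL48 in F5H-OE against fah-1.

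Over the whole family the log2 fold changes from WT to F5H-OE ran from -0.84 to 1.02, with a median of 0 against -0.02 over all probe sets, and 14 genes were positive and 15 negative. The median absolute change was 0.14 in the family and 0.114 over all probe sets. At 1.5-fold or more before rounding (log2 0.585), whether passed or not, there were 2 members, SCPL42 and SCPL48, against 4.25% of all probe sets, and SCPL34 lay just under that bound at 0.58. The 14 dim genes stayed between -0.22 and 0.13. For 23 of 29 genes, all 14 dim ones among them, the 95% interval lay within 1.5-fold of no difference. Near background a narrow interval does not show that the transcript was unchanged. Those with wider or shifted intervals were SCPL20, SCPL25, SCPL34, SCPL40, SCPL42 and SCPL48. SCPL25 had a log2 fold change of -0.39 (95% interval -0.83 to 0.05) and SCPL40 one of 0.23 (-0.45 to 0.92).

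The other bright genes overlapped between F5H-OE and WT. SCPL31 read 970 to 1331 in WT, 1124 to 1326 in F5H-OE, and 1218 and 1223 in fah-1. SCPL26 read 414 to 589, 380 to 561, and 525 and 433 in the same order. SCPL27 read 187 to 246, 191 to 284, and 199 and 214. In these 3 genes all groups overlapped. SCPL35 read 341 to 422 in WT, 269 to 457 in F5H-OE, and 426 and 355 in fah-1. SCPL25 read 205 to 266, 142 to 238, and 240 and 203, and SCPL46 read 76.8 to 104, 65.9 to 85.9, and 97.4 and 101. SCPL46 thus had all F5H-OE arrays below both fah-1 arrays but not below all WT arrays. SCPL50 read 118 to 160 in WT, 145 to 147 in F5H-OE, and 135 and 149 in fah-1, the F5H-OE and fah-1 arrays lying within the WT range. SCPL40 read 32.8 to 51.7 in WT, 32.8 to 78.1 in F5H-OE, and 52.9 and 64.5 in fah-1.

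The dim genes carried smaller differences. SCPL43 read 26.9 to 33.3 in WT, 25.5 to 28.2 in F5H-OE, and 30.6 and 31.6 in fah-1, with a log2 fold change from WT to F5H-OE of -0.19 (limma adjusted p = 0.344). SCPL30 had 0.13, SCPL47 0.04, SCPL44 0.02, SCPL21 0.01, SCPL33 -0.04, SCPL32 -0.06 and SCPL38 -0.10, each as a log2 fold change from WT to F5H-OE, and none passed. SCPL16 and SCPL18, at background, had -0.17 and -0.02. A fold between values at background has little meaning as a ratio of transcripts.

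The spread between replicates differed among members. SCPL40 varied most, with a within-group SD of 0.46 on the log2 scale, followed by SCPL20 (0.312), SCPL35 (0.306) and SCPL25 (0.283). SCPL49 (0.0554), SCPL44 (0.0441), SCPL41 (0.0765) and SCPL29 (0.0921) varied least. The median was 0.202 over the 15 bright genes, 0.147 over all 29 and 0.126 over all probe sets. In 7 of the bright genes, SCPL25, SCPL26, SCPL27, SCPL31, SCPL34, SCPL40 and SCPL42, WT replicate 1 was the lowest and WT replicate 2 the highest WT array, 0.37 to 0.66 log2 units apart. That order held for 21.8% of all probe sets, bright and dim, and WT replicate 1 alone was lowest in 46.6% of them. No share was taken over bright probe sets only.

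Several members are neighbours in the genome, and pairs could be compared. SCPL41 and SCPL42 lie side by side on chromosome 5 among the named genes. SCPL41, whose loss is known to alter membrane lipids, read 16.1, 15.6 and 17.8 in WT, 14, 14.8 and 13.7 in F5H-OE, and 15.8 and 15.1 in fah-1. Its F5H-OE values were all below WT, at a log2 fold change of -0.22 (SE 0.0789, limma adjusted p = 0.206), and they lay near the TrpnX controls. SCPL26 was bright and its adjacent gene SCPL28 dim, with log2 fold changes of -0.08 each. SCPL22 and SCPL23, adjacent on chromosome 2, had -0.16 and -0.14. No gene of these latter pairs passed.

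By chromosome, 2 of the 5 members on chromosome 5 passed in F5H-OE against WT (SCPL34 and SCPL42), 1 of 8 on chromosome 3 (SCPL48) and 0 of 16 elsewhere. The share of all named genes that passed was not taken by chromosome, so no pattern is read from so few calls. Among the 25 named genes on either side of each member, the number that passed was 1 in the median. It was highest around SCPL41, at 6 of 50, and SCPL42, at 5 of 50, 2 windows that overlap almost wholly. Other members in a window were counted, so SCPL42 itself is 1 of the 6 around SCPL41. Over all 13217 named genes of the nuclear chromosomes 2.39% passed. The 5 around SCPL42 were AT5G41810 at -0.40, AT5G41860 at -1.03, AT5G42090 at -0.85, AT5G41900 at 1.36 and AT5G42670 at 0.52 (log2 fold changes), 3 lower and 2 higher. Around SCPL48, 0 of 50 passed, and around SCPL34 there was 1, AT5G22860, at 1.54.

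**Figure D4:**
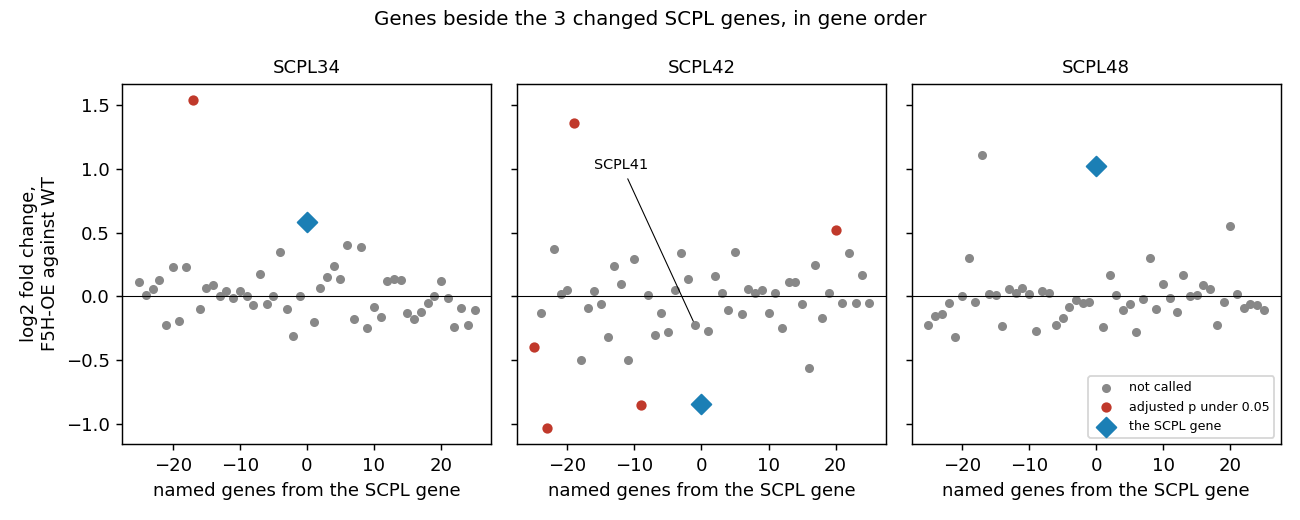
Log2 fold change of F5H-OE against WT (y axis) for the 25 named genes on either side of SCPL34, SCPL42 and SCPL48, by place in gene order (x axis), with the SCPL gene as a diamond and neighbours past the threshold in red. The SCPL42 window holds 5 red neighbours in both directions, the SCPL34 window 1 and the SCPL48 window none.

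Loss of F5H function was examined by setting fah-1 against WT. No SCPL gene passed limma's test, 0 of 29 at an adjusted p under 0.05, where 0.00879% of all probe sets passed. Before adjustment the count was also 0 of 29 (p under 0.05), where all probe sets gave 5.02%, 1.53% higher and 3.49% lower. Log2 fold changes ran from -0.29 for SCPL48 to 0.45 for SCPL40, with a median of -0.01 against -0.02 over all probe sets. For 25 of 29 genes, all 14 dim ones among them, the 95% interval lay within 1.5-fold of no difference, with the same limit near background. The others were SCPL20 (-0.69 to 0.37), SCPL34 (0.00 to 0.62), SCPL40 (-0.32 to 1.22) and SCPL48 (-0.73 to 0.15). SCPL48 and SCPL20 had both fah-1 arrays below all WT arrays, and SCPL30, SCPL34 and SCPL40 had both above. These are 5 of 29 genes, against 23.4% of all probe sets whose groups did not overlap (8.58% higher and 14.9% lower).

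Whether the altered lines differ from each other was tested by setting F5H-OE against fah-1, which shares the F5H-OE arrays with the comparison against WT. SCPL48 was 2.47-fold higher in F5H-OE, 2785 ± 641 (SD, n = 3) against 1109 ± 76.4 (SD, n = 2), with a log2 fold change of 1.30 (SE 0.192, limma adjusted p = 0.0146). SCPL42 was 1.97-fold lower, 104 ± 11.7 (SD, n = 3) against 205 ± 11.9 (SD, n = 2), with a log2 fold change of -0.98 (SE 0.159, limma adjusted p = 0.0217). These 2 of 29 genes passed, against 1.97% of all probe sets (1.14% higher and 0.835% lower). Groups did not overlap for 11 of 29 genes, 5 higher and 6 lower, against 36.8% of all probe sets (18% higher and 18.9% lower). Of the xylem markers, IRX10 also passed, higher in F5H-OE than in fah-1 (log2 fold change 0.64). From WT, IRX10 stood at 0.10 in F5H-OE and -0.55 in fah-1, neither passing. IRX15 and IRX15-L stood at 0.02 and 0.19 in F5H-OE and at -0.46 and -0.34 in fah-1, none passing. The part of these markers in the results was not tested. The calls of SCPL48 and SCPL42 ended without either fah-1 array, where the lone fah-1 array is assumed to vary like the other groups. That of SCPL42 also ended without F5H-OE replicate 3. That of SCPL48 also ended in a fit of the 2 groups alone and with the replicate block (limma adjusted p = 0.064). Over the alternatives the adjusted p ran from 0.000392 to 0.182 for SCPL48 and from 0.00233 to 0.228 for SCPL42. Both lines set against WT used the same WT arrays, so their folds are given side by side: SCPL48 stood at 1.02 in F5H-OE and -0.29 in fah-1, SCPL42 at -0.84 and 0.14, and SCPL34 at 0.58 and 0.31 (log2 fold changes from WT).

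SCPL34 did not pass between the lines (log2 fold change 0.27, 95% interval -0.04 to 0.58, limma adjusted p = 0.382). SCPL20 had 0.74 (SE 0.232, limma adjusted p = 0.18) and passed without F5H-OE replicate 1, at 1.01 (limma adjusted p = 0.00126). SCPL49 at 0.28, SCPL45 at 0.27 and SCPL46 at -0.36 had an unadjusted p under 0.05 only, and with SCPL20, SCPL42 and SCPL48 they made 6 of 29 members at that level, 4 higher and 2 lower. All probe sets gave 15.7%, 9.12% higher and 6.6% lower. SCPL48 was the 1 member whose arrays were ordered without overlap from fah-1 through WT to F5H-OE, an order that 1.17% of all probe sets had. No member showed the reverse order, which 0.51% had.

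**Figure D5:**
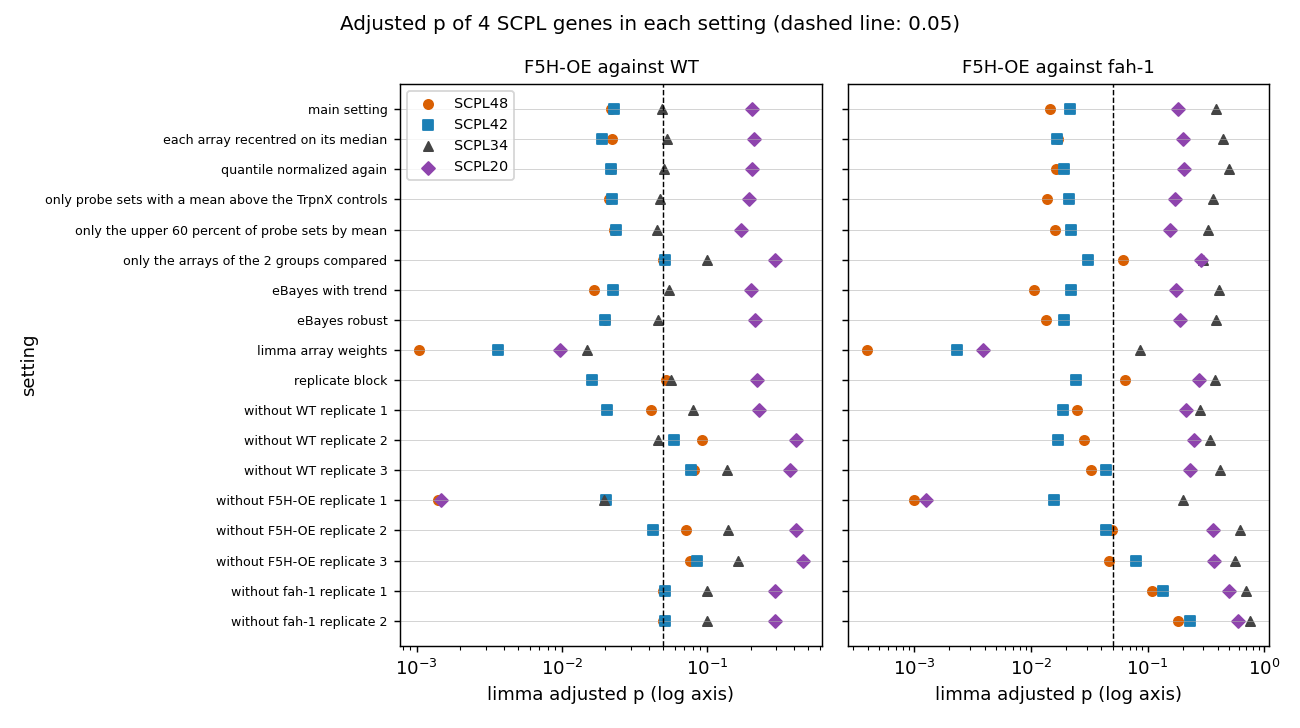
Adjusted p from limma (x axis, log scale) of SCPL48, SCPL42, SCPL34 and SCPL20 under the main setting and 17 alternatives (y axis), with the threshold of 0.05 dashed. SCPL20 crosses the line in F5H-OE against WT in 2 alternatives, array weights (0.00974) and the fit that drops F5H-OE replicate 1 (0.00147), and SCPL34 lies close to it at 0.0489 in the main setting.

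The substrates of the SCPL acyltransferases are made by other enzymes, of which few could be named. Of 20 listed genes of sinapate esters and their donors, 8 were measured. REF1 (ALDH2C4), the aldehyde dehydrogenase that forms sinapate, fell in F5H-OE against WT (log2 fold change -0.55, SE 0.102, limma adjusted p = 0.032). UGT84A1, UGT84A3 and UGT84A4, glucosyltransferases of the family that makes the hydroxycinnamoyl glucose donors, had 0.08, -0.14 and -0.12, none passing, and UGT72E1 had -0.87 (limma adjusted p = 0.14). The list's median was -0.14. Of 19 listed anthocyanin genes 7 were measured, with a median of -0.16, and AT4G14090 (UGT75C1), which glucosylates anthocyanins, fell by 0.71 on the log2 scale (SE 0.0926, limma adjusted p = 0.0072). Only leaving out F5H-OE replicate 1 kept REF1 past the threshold among the 8 fits that each dropped an array. Of 13 glucosinolate genes, AOP3 (-0.12) and GSL-OH (-0.05) were measured, neither passing, and of 10 brassinosteroid genes 0. Over all probe sets 2.65% passed in F5H-OE against WT, 1.36% lower. At an unadjusted p under 0.05 in F5H-OE against WT there were 4 of 17 measured genes (REF1, UGT72E1, UGT75C1 and 5MAT, all lower). All probe sets gave 17.5% at that level, 9.35% lower. In fah-1 against WT limma passed 0 of these 17 measured genes, where 0.00879% of all probe sets passed. An unadjusted p under 0.05 was seen for 3, REF1 at -0.31, UGT75C1 at -0.64 and 5MAT, an anthocyanin malonyltransferase, at -0.24. All probe sets gave 5.02% at that level, 3.49% lower. The medians were -0.02 for sinapate and -0.10 for anthocyanin genes. Between F5H-OE and fah-1, 0 of 17 passed, against 1.97% of all probe sets. At an unadjusted p under 0.05 there was 1, UGT72E1 (-0.76), where all probe sets gave 15.7%, 6.6% lower.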

How the data were processed

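The values are linear intensity values per probe set, as the authors deposited them. Per the submitters' processing notes RMA was used, of a version and chip definition not given in the sources used here. This method makes arrays alike in distribution, so a shift of most transcripts one way would not show. The planned test allowed for linear values, and log2 was taken with no pseudocount. Controls (64 of 22810 probe sets) were left out. Group means over all 8 arrays were compared by the moderated test of limma (version 3.58.1, lmFit then eBayes, under R 4.3.3). The p-values are 2-sided and Benjamini-Hochberg adjusted for 22746 probe sets, with a threshold of 0.05. Intervals are unadjusted 95% intervals. The number of arrays limits the precision, and p-values measure the spread between pooled samples. Replicate numbers came from the labels and were not taken as pairs.

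Of the probe sets, 13513 (59.4%) had 1 gene, 503 several and 8730 were not listed. Symbols were updated through a TAIR10.1 gene table, which served for names and gene order only. The members, gene lists and rules were chosen with earlier results of these data known. By rule every member is named, with all array values for those that passed and for the 6 with the smallest p, and from each list the genes that passed and up to 4 more. SCPL20 and the dim levels, the neighbour windows and the order of groups were added after values were seen. The fit was tested on simulated data. Alternatives covered centring, normalization, 2 filters, the samples fitted, the prior, array weights, the replicate block and each array left out. For F5H-OE against WT, leaving out a fah-1 array repeats the fit of the 2 groups alone.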

Additional observations from a re-analysis of the deposited data

Results flagged for a closer look

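SCPL48 and SCPL42 are singled out because the 2 F5H lines differed from each other in a test of that difference itself, F5H-OE against fah-1. SCPL48 was higher in F5H-OE by a log2 fold change of 1.30 (limma adjusted p = 0.0146), with 3 of 3 F5H-OE arrays above both fah-1 arrays. SCPL42 was lower in F5H-OE, at a log2 fold change of -0.98 (limma adjusted p = 0.0217), with 3 of 3 F5H-OE arrays below both fah-1 arrays. Such a separation is common with so few arrays, at 18% of all probe sets above and 18.9% below. Without F5H-OE replicate 1 the log2 fold changes of SCPL48 and SCPL42 were 1.50 and -0.89. With 2 fah-1 arrays, neither passed when one of them was left out.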

How the results depend on the processing

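No call of an SCPL gene changed direction among the alternatives run, and of the SCPL folds recomputed 1 turned sign, SCPL45 in fah-1 against WT, which did not pass (log2 fold change 0.05, and -0.03 without fah-1 replicate 1). Probe sets that passed in F5H-OE against WT (603) numbered 379 with the 2 groups alone, 2526 with array weights, 401 with the replicate block and 237 to 1758 with 1 array left out. SCPL genes that passed (3) numbered 1 (SCPL48), 7, 1 (SCPL42) and 0 to 4. Listed pathway genes (2) numbered 4 with array weights, which added UGT72E1 and 5MAT, and 1 to 2 with 1 array left out. Without WT replicate 1 the genes that passed were UGT72E1 and UGT75C1, and REF1 did not. In fah-1 against WT, probe sets (2, both lower) numbered 1 with a robust prior, 3 with the replicate block (2 higher and 1 lower) and 1 to 3 with 1 array left out, and SCPL genes were 0 throughout. In F5H-OE against fah-1, probe sets (449) numbered 274, 2878, 229 and 69 to 1554 in the same order, SCPL genes (2) numbered 1, 5, 1 and 0 to 3, and pathway genes (0) numbered 1 with array weights and 0 with any array left out. With each array recentred, the 259 higher and 190 lower probe sets of that comparison became 211 and 241. Same-numbered arrays correlated in their deviations at -0.0593 to 0.333, against -0.248 to 0.0877 for different numbers. The 2 fah-1 arrays deviate from their mean as mirror images, so pairs with them carry no information on pairing. Between WT and F5H-OE, replicates 1 and 2 correlated at 0.172 and 0.333 when matched by number and at -0.245 and -0.248 when crossed. Replicate 3 gave -0.0248 when matched. A shared effect of replicate number was not tested, pairing was not established, and the replicate block is given only as an alternative. Averaging the probe sets of a gene changed nothing, since each member had 1. A signal near background limits the 14 dim genes, and their folds may understate differences in transcript.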
